A study of Mus musculus with 18 samples.

Results

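Genes that mark T and B lymphocytes were followed in the left ventricle (LV) of mice. They are 9 of the 55450 genes in the count table, chosen by name, with earlier results of these data known. The 4 T cell genes were Cd3d, Cd3e, Cd3g and Cd2, and the 5 B cell genes were Cd79a, Cd79b, Ms4a1, Ighm and Igkc. RNA was sequenced from the LV of male FVB/N mice, either cardiac-specific Gαq overexpressors or their wild-type (WT) littermates. Mice of both genotypes ate control diet (CD) or chow with 0.5 mg/g of the SGLT2 inhibitor ertugliflozin (ERTU), which blocks a glucose transporter, from 4 weeks of age for 16 weeks, so that all hearts were taken at 20 weeks. There were 4 libraries of WT on CD, 5 of WT on ERTU, 5 of Gαq on CD and 4 of Gαq on ERTU, 18 in all, each named here by its group and the number in the count table. The transgene is restricted to the heart, its promoter is not given in the sources used here, and each library holds RNA of every cell type of the powdered tissue.

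T cells recognise antigen through the T cell receptor, whose signal is carried into the cell by the CD3 subunits. B cells recognise antigen through surface immunoglobulin, which signals through the paired chains Cd79a and Cd79b, and plasma cells are their antibody-secreting descendants. Lymphocytes are a small minority of the cells in a healthy ventricle, where cardiomyocytes, fibroblasts, endothelial cells and macrophages prevail. Cd3d, Cd3e and Cd3g encode the 3 CD3 chains. Cd2, an adhesion molecule of T cells, is also found on mouse B and natural killer cells. Ms4a1 encodes CD20, a surface protein of mature B cells. Ighm and Igkc encode the constant regions of the IgM heavy chain and of the kappa light chain, and both are also made by plasma cells.

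The libraries held 15383566 to 20908363 counts. All 10 ventricular cardiomyocyte genes looked up passed the filter on low counts. Gnaq, the overexpressed gene, lay between 45.5 and 230 CPM (counts per 1000000 of the scaled library total) in WT libraries and between 1641 and 11672 CPM in Gαq libraries, and its mean in Gαq CD (7473 ± 3818, SD, n = 5) was above that in Gαq ERTU (3216 ± 1371, n = 4). Atrial genes stood apart in some libraries: Myl7, an atrial myosin light chain, was above 50 CPM in 1 library of each group (WT CD library 5, WT ERTU library 14, Gαq CD library 8 and Gαq ERTU library 20) and between 0 and 33.7 CPM in the others. In these whole-tissue samples, fewer cells of a type and less RNA per cell cannot be told apart.

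The 3 CD3 genes lie within 40056 bases of chromosome 9 (GRCm38). Cd3g runs on the minus strand from 44969572 to 44980431 and Cd3d on the plus strand from 44981786 to 44987339, so that they start head to head with 1354 bases between them. Cd3e lies on the minus strand from 44998740 to 45009627, and 135 of its 4080 exon bases overlap the antisense gene Gm48719, whose reads could be told apart only by strand. Cd2 lies on chromosome 3 (101275899 to 101287939, minus strand). Of the B cell genes, Cd79a lies on chromosome 7 (24897381 to 24902197, plus strand), Cd79b on 11 (106311341 to 106314762, minus), Ms4a1 on 19 (11249675 to 11266241, minus), Ighm on 12 (113418558 to 113422730, minus) and Igkc on 6 (70726435 to 70726966, plus). The annotation classes Ighm and Igkc as immunoglobulin constant genes and the others as protein coding.

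The 250 bases before the starts of Cd3g and Cd3d are shown because this head-to-head pair has neighbouring start regions. The sequences come from RefSeq (GRCm38.p6), where 4 of the 9 genes had an entry, and are written 5′ to 3′ on the strand of each gene. Capitals mark the E-box CACCTG, searched on both strands and picked after the sequences had been seen. The windows are chr9:44980432-44980681 (minus strand) for Cd3g and chr9:44981536-44981785 (plus strand) for Cd3d.
Cd3g: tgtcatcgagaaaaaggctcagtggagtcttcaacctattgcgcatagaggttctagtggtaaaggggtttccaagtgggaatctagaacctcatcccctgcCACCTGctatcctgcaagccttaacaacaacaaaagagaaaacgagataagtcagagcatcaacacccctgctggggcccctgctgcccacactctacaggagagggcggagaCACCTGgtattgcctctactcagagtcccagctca
Cd3d: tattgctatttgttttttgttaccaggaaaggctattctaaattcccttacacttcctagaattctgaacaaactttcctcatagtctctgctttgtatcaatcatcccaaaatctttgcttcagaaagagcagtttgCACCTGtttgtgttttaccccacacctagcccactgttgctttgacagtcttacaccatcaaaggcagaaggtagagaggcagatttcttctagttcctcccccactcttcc
Cd3g held the 6 bases at 2 places, starting 148 and 35 bases before its start, and Cd3d at 1 place, 112 bases before its start. Of all 32851 RefSeq windows of this length, 17.2% held it on either strand, and a match in the letters is no evidence of binding. Across the 18 libraries Pearson's r of this pair was -0.04 on log2 CPM, given as a description over libraries that share depth and processing. With 1 to 13 counts of Cd3d and 3 to 24 of Cd3g per library, it cannot show whether the pair moves together.

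All 9 genes were detected in every library, but at few reads. A single count was worth 0.0458 to 0.0644 CPM. The lowest count of any library was 1 for Cd3d, Cd3e, Cd2, Cd79a, Cd79b, Ms4a1 and Igkc, 3 for Cd3g and 117 for Ighm. Summed over the 18 libraries, the T cell genes had 89 (Cd3d), 125 (Cd3e), 197 (Cd3g) and 121 (Cd2) counts. The B cell genes had 158 (Cd79a), 261 (Cd79b), 137 (Ms4a1), 4136 (Ighm) and 386 (Igkc) counts. Per kilobase of exon, the mean level was highest for Ighm (6.66 CPM per kb), followed by Igkc (2.09), Cd79b (0.536), Cd79a (0.326), Cd2 (0.208), Cd3g (0.179), Cd3d (0.148), Cd3e (0.0918) and Ms4a1 (0.0652). The 4 T cell genes and Ms4a1 were thus the lowest.

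The filter on low counts asked for about 10 counts in at least 4 libraries. It was passed by 6 of the 9 genes: Cd3g and Cd2 of the 4 T cell genes, and Cd79a, Cd79b, Ighm and Igkc of the 5 B cell genes. Cd3d, Cd3e and Ms4a1 did not pass and were compared by exact tests instead. Cd79a reached 10 counts in 5 libraries, each of them Gαq, Cd79b in 10 libraries, of which 9 were Gαq, and Cd2 in 5 libraries, of which 4 were Gαq. For Cd3g it was 9 libraries with 7 Gαq, and for Igkc 12 with 7. Genes so filtered enter the test more readily where Gαq libraries are high, so the count of tested genes that rose and their signs are given as a description.

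**Figure D1:**
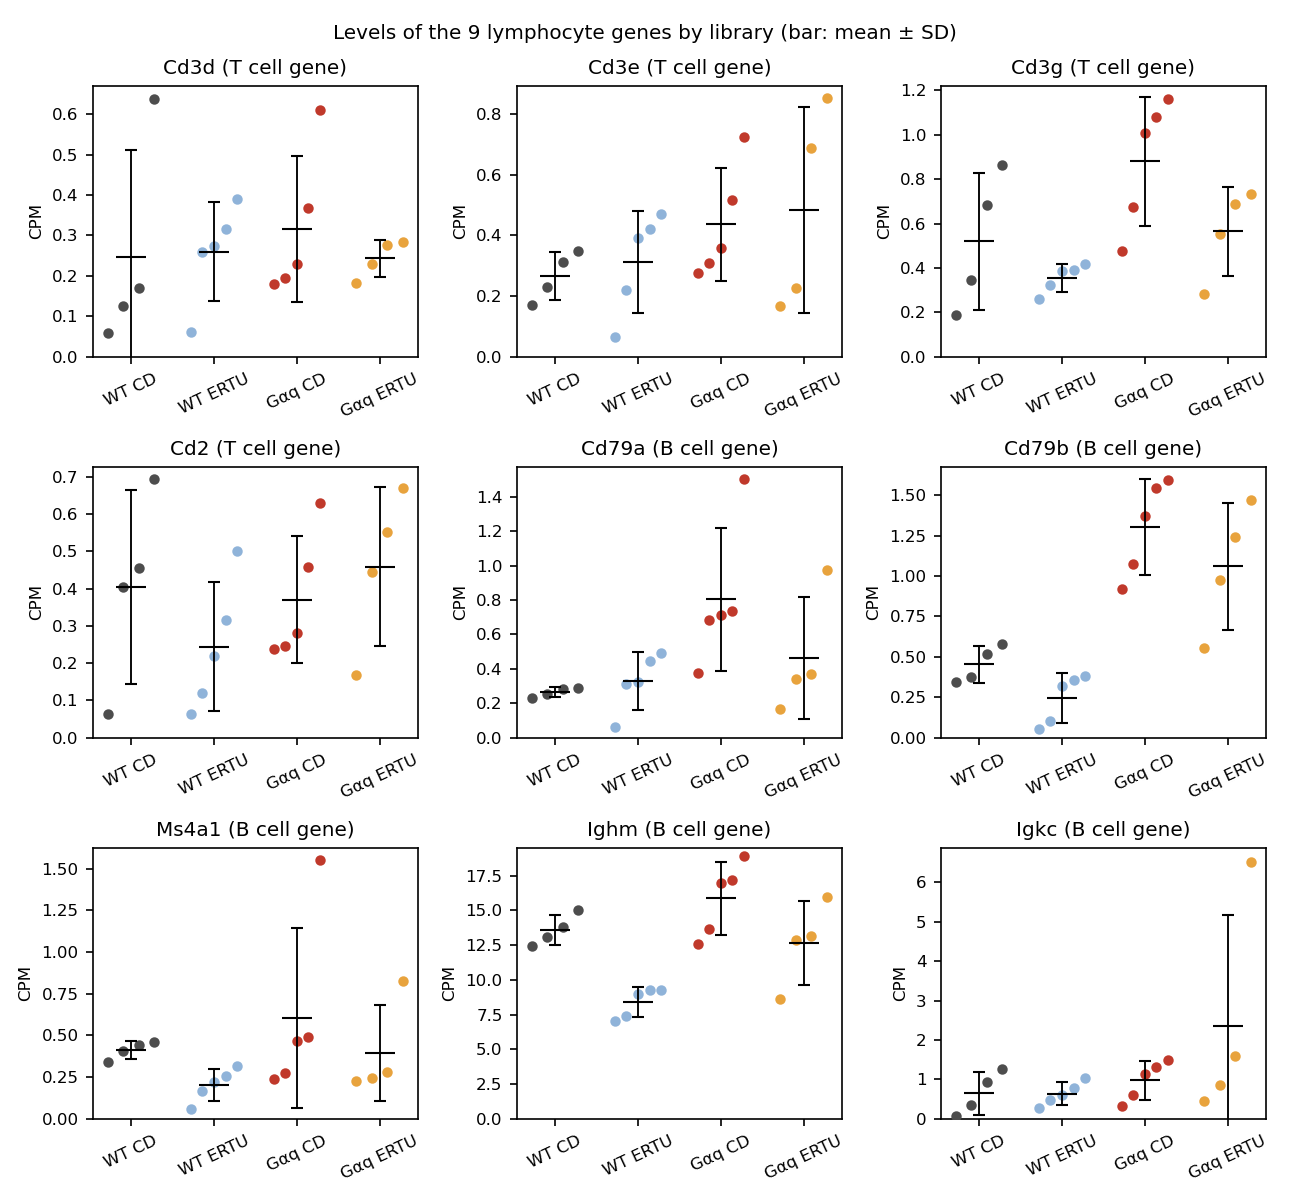
Levels (CPM, linear axes from 0) of the 4 T cell and 5 B cell genes in the 18 libraries. Each point is 1 library, and bars give the mean ± SD of its group (n = 4, 5, 5 and 4). Cd79b was above the WT maximum of 0.579 CPM in 8 of 9 Gαq libraries, and the share of all genes that split so was not counted. Ighm in WT ERTU (7.02 to 9.28 CPM) lay below every WT CD library. That difference did not pass (edgeR, adjusted p = 0.9999), and 0.43% of all genes were lower there with no overlap.

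Which lymphocyte genes differ between Gαq and WT hearts was asked first with both diets together. Cd79b rose 3.45-fold in Gαq LV and Ighm by 0.40 on the log2 scale, whereas neither of the tested T cell genes, Cd3g and Cd2, passed the test. In the model of genotype and diet, 2 of the 6 tested genes were higher in Gαq at an adjusted p under 0.05 and none was lower. Of all 16270 genes tested, 9.72% were higher and 9.92% lower.

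Cd79b, the Igβ chain of the B cell receptor, had the smallest p of the 6 tested genes. In WT CD its level was 0.519, 0.342, 0.579 and 0.377 CPM, and in WT ERTU 0.36, 0.0557, 0.384, 0.105 and 0.322 CPM. In Gαq CD it was 0.922, 1.6, 1.37, 1.07 and 1.55 CPM, and in Gαq ERTU 0.975, 0.554, 1.24 and 1.47 CPM. Only Gαq ERTU library 17, at 0.554 CPM and 10 counts, fell within the WT range. The log2 change by genotype was 1.79 ± 0.28 (SE; edgeR quasi-likelihood test, adjusted p = 8.42e-05). With no filter on low counts it was 1.79 ± 0.29 (edgeR, adjusted p = 5.09e-05 over 30773 genes).

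Ighm was the most abundant of the 9 genes. Its mean over the 18 libraries was 12.6 CPM, against 1.11 CPM for Igkc and 0.403 CPM for Ms4a1. Which cells the Ighm reads come from was not tested, so the changes of Ighm by genotype and diet need not follow B cells. Its level over the 9 WT libraries ran from 7.02 over a median of 9.28 to 15 CPM, and over the 9 Gαq libraries from 8.59 over 13.6 to 18.9 CPM. The genotypes overlapped, with 4 of 9 Gαq libraries above the WT maximum. The log2 change by genotype was 0.40 ± 0.11 (edgeR, adjusted p = 0.016), and the adjusted p was at most 0.0431 whichever of the 18 libraries was left out.

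Of the other tested genes, Cd79a differed by a log2 change of 1.02 ± 0.38 (edgeR, adjusted p = 0.0625), Igkc by 1.30 ± 0.50 (adjusted p = 0.0737), Cd3g by 0.71 ± 0.28 (adjusted p = 0.0751) and Cd2 by 0.36 ± 0.39 (adjusted p = 0.574). The first 3 lay just outside the threshold, each passed it in 3 of the 18 fits without 1 library, and the changes of the 6 genes that passed the filter had a positive sign, which the filter favours. For Cd79a these were the fits without Gαq CD library 10 (edgeR, adjusted p = 0.0468), WT ERTU library 13 (0.0426) or Gαq ERTU library 17 (0.0277). For Cd3g they were those without WT CD library 1 (edgeR, adjusted p = 0.0418), Gαq CD library 9 (0.0462) or Gαq ERTU library 18 (0.0464), and for Igkc without WT CD library 2 (0.0346), Gαq CD library 8 (0.0482) or Gαq ERTU library 17 (0.0423). The Igkc value rested on Gαq ERTU library 20: without it the log2 change was 0.59 (edgeR, adjusted p = 0.362). Whether the change of B cell genes differs from that of T cell genes was not tested.

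On CD, Gαq hearts had higher Cd79b than WT hearts, and the other tested genes did not pass. The groups on CD did not overlap for Cd79b, which was 2.85-fold higher (log2 change 1.51 ± 0.38; edgeR, adjusted p = 0.0168). It was the 1 gene of the 6 tested that rose, and 4% of all genes rose in this comparison. The adjusted p was 0.0654 without WT CD library 2 and 0.0632 without the 4 libraries with Myl7 above 50 CPM, with log2 changes of 1.40 and 1.42.

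Cd79a, the Igα partner of Cd79b, had 0.231, 0.285, 0.289 and 0.251 CPM in WT CD and 0.738, 1.5, 0.686, 0.715 and 0.375 CPM in Gαq CD. These groups did not overlap either, but the WT values stood for 4 or 5 counts per library. The log2 change was 1.58 ± 0.52 (edgeR, adjusted p = 0.0674), which did not pass, though it did without Gαq CD library 10 (0.0378), WT ERTU library 11 (0.0444) or Gαq ERTU library 16 (0.0428). Of all genes tested, 4.7% were higher in every Gαq CD library than in any WT CD library. Cd3g, the T cell gene with the most counts, had 0.865, 0.684, 0.347 and 0.188 CPM in WT CD and 0.676, 1.16, 1.01, 0.477 and 1.08 CPM in Gαq CD. Its groups overlapped, and its log2 change was 0.75 ± 0.38 (edgeR, adjusted p = 0.275). The log2 changes of Cd2 (-0.11 ± 0.54), Ighm (0.22 ± 0.15) and Igkc (0.57 ± 0.72) did not pass either.

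On ERTU, Cd79b and Ighm rose in Gαq relative to WT hearts. Cd79b was 4.32-fold higher with no overlap of the groups (log2 change 2.11 ± 0.41; edgeR, adjusted p = 0.00239), and this call held in all 18 fits without 1 library. Ighm was 1.51-fold higher (log2 change 0.59 ± 0.16; edgeR, adjusted p = 0.022), with 7.02, 7.41, 9.0, 9.28 and 9.28 CPM in WT ERTU against 12.9, 8.59, 13.2 and 15.9 CPM in Gαq ERTU. Gαq ERTU library 17 again fell among the WT libraries. These were 2 of the 6 tested genes, where 3.93% of all genes rose and 5.4% were higher with no overlap of the groups.

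The Ighm call on ERTU was lost in 5 of the 18 fits without 1 library, namely WT ERTU library 11 (adjusted p = 0.0585) or 12 (0.062), or Gαq ERTU library 16 (0.0501), 18 (0.0634) or 20 (0.112), and the edgeR log2 change was then 0.46 to 0.58. Cd79a (log2 change 0.45 ± 0.52), Cd3g (0.66 ± 0.42) and Cd2 (0.86 ± 0.56) did not pass. Igkc differed by 1.92 ± 0.67 (edgeR, adjusted p = 0.0853), by 0.61 without Gαq ERTU library 20 (adjusted p = 0.663) and by 2.26 without library 17 (0.0372). Gαq CD against WT CD and Gαq ERTU against WT ERTU compare separate libraries, but both tests use a spread estimated over all 18 libraries. No gene passed the test of the interaction of genotype and diet (0% of all genes called by edgeR, and 0 by DESeq2 and voom). At an unadjusted p under 0.05, 148 genes were higher and 165 lower (edgeR). For Cd79b the interaction was 0.60 ± 0.56 on the log2 scale.

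**Figure D2:**
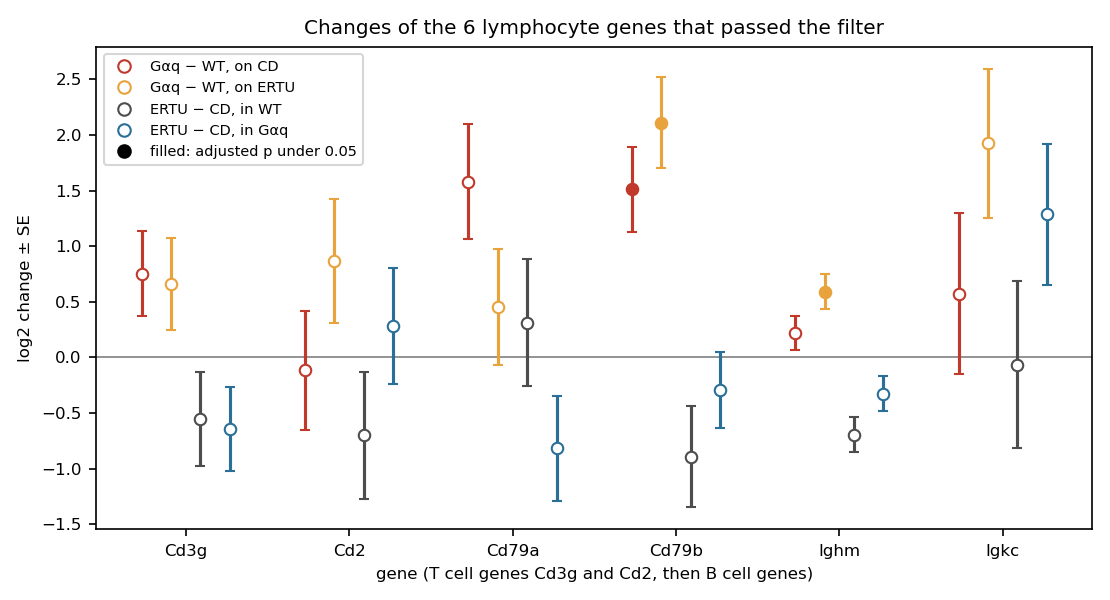
Changes on the log2 scale (edgeR, ± SE) of the 6 genes that passed the filter, in 4 comparisons of 4 against 5 libraries. Filled points had an adjusted p under 0.05: Cd79b in Gαq against WT on CD (1.51) and on ERTU (2.11), and Ighm in Gαq against WT on ERTU (0.59).

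Whether ERTU changes lymphocyte genes was asked in each genotype and over both. No lymphocyte gene passed the test for diet. Over both genotypes the model called 0% of all genes (0 by edgeR, with 551 higher and 701 lower at an unadjusted p under 0.05, 2 by DESeq2 and 0 by voom). Ighm ranked 6 of 16270 genes by its p, with a log2 change of -0.51 ± 0.11 (edgeR, adjusted p = 0.606; unadjusted p = 0.000262). Cd79b (-0.51 ± 0.27), Cd3g (-0.61 ± 0.27), Cd79a (-0.36 ± 0.37) and Cd2 (-0.16 ± 0.39) had the same sign, and Igkc had the other (0.73 ± 0.50, and -0.04 without Gαq ERTU library 20).

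In WT hearts the difference by diet was clearest for Ighm. Its 4 WT CD libraries had 12.5, 13.1, 13.8 and 15 CPM (216 to 239 counts), against 7.02, 7.41, 9.0, 9.28 and 9.28 CPM (117 to 177 counts) in WT ERTU. The groups did not overlap, and the means were 13.6 ± 1.09 (n = 4) and 8.40 ± 1.09 CPM (n = 5). The log2 change of -0.69 ± 0.16 had the smallest unadjusted p of all 16270 genes (0.000284), but edgeR's adjusted p was 0.9999, so that it did not pass. In this comparison 0% of all genes were called (0 by edgeR, DESeq2 and voom, with 131 higher and 234 lower at an unadjusted p under 0.05), and 0.43% were lower with no overlap of the groups. Without any 1 library the log2 change ran from -0.73 to -0.64, and the adjusted p was 0.824 at the lowest.

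Ms4a1 also had lower values in WT ERTU. It had 0.461, 0.342, 0.405 and 0.439 CPM (6 to 8 counts) in WT CD and 0.06, 0.167, 0.219, 0.315 and 0.258 CPM (1 to 6 counts) in WT ERTU. The groups did not overlap, with a mean difference of -0.208 CPM, and 0.43% of the genes tested by edgeR were lower with no overlap. The 2-sided exact permutation test gave an unadjusted p of 0.0159, where the 126 splits allow no p below 0.00794. It was 1 of 12 such tests on the 3 genes under the filter. Adjusted over these tests (Benjamini-Hochberg), its p was 0.19, so that it did not pass. Without any 1 of the 9 libraries compared the unadjusted exact p was 0.0179 to 0.0357. In the edgeR fit with no filter the log2 change was -0.98 ± 0.60 with an adjusted p of 0.987. The 11 other exact tests of Cd3d, Cd3e and Ms4a1 gave unadjusted p between 0.143 and 0.929.

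The other WT differences by ERTU were small against their errors. Cd79b differed by -0.89 ± 0.45 on the log2 scale, Cd2 by -0.70 ± 0.57, Cd3g by -0.55 ± 0.42, Cd79a by 0.31 ± 0.57 and Igkc by -0.06 ± 0.75, and the groups of each overlapped. In Gαq hearts ERTU gave log2 changes of -0.32 ± 0.16 (Ighm), -0.29 ± 0.34 (Cd79b), -0.81 ± 0.47 (Cd79a), -0.65 ± 0.38 (Cd3g), 0.28 ± 0.52 (Cd2) and 1.29 ± 0.64 (Igkc, -0.03 without Gαq ERTU library 20), with no adjusted p below 0.656 (edgeR) and overlapping groups throughout. Of all genes 0.00615% were lower in this comparison, none of the 9 among them. The interaction for Ighm was 0.37 ± 0.22 (edgeR, adjusted p = 0.9997).

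T and B cell genes were then summed. The 4 T cell genes summed to 1.44 ± 0.554 CPM in WT CD, 1.17 ± 0.364 in WT ERTU, 2.00 ± 0.604 in Gαq CD and 1.75 ± 0.673 in Gαq ERTU (mean ± SD; n = 4, 5, 5 and 4). All of these ranges overlapped, from 0.691 to 2.71 CPM. The 3 B cell genes other than immunoglobulin, Cd79a, Cd79b and Ms4a1, summed to 1.13 ± 0.138 CPM in WT CD, 0.776 ± 0.235 in WT ERTU, 2.71 ± 1.09 in Gαq CD and 1.92 ± 0.706 in Gαq ERTU. On CD, the lowest Gαq library (2.03 CPM) lay above the highest WT library (1.27 CPM). On ERTU, Gαq library 17 (0.998 CPM) fell below the highest WT library (1.10 CPM). No p is given for these sums. Of single genes tested, 4.7% were higher in every Gαq CD library than in any WT CD library. How often sums of 3 genes separate so was not counted.

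**Figure D3:**
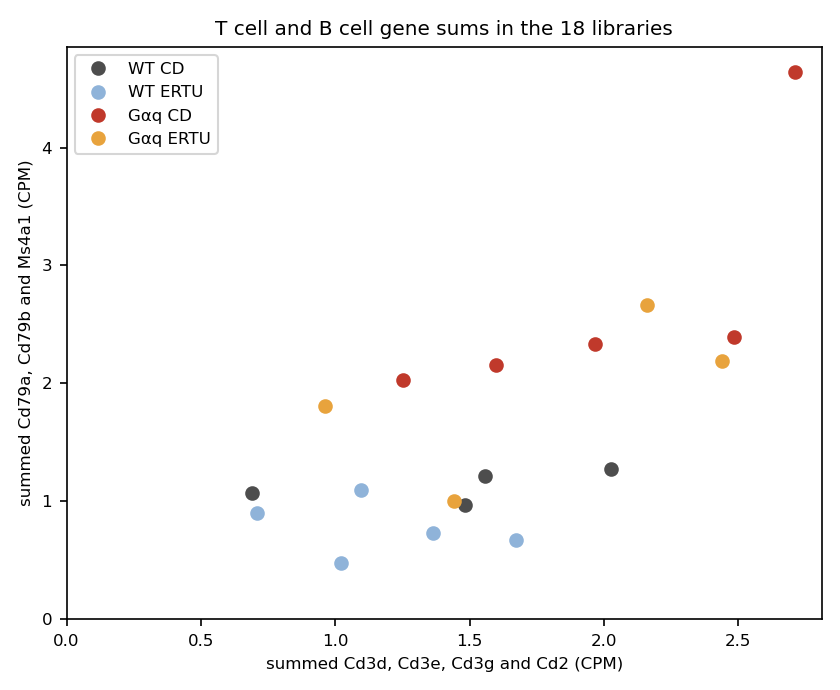
Summed CPM of the 4 T cell genes (x axis) and of the B cell genes Cd79a, Cd79b and Ms4a1 (y axis), 1 point per library, coloured by group. On the B cell axis Gαq CD libraries lay from 2.03 to 4.65 CPM and WT libraries from 0.480 to 1.27 CPM. Gαq ERTU libraries lay from 0.998 to 2.67 CPM there and overlapped WT. The groups overlapped along the T cell axis.

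The log2 ratio of the T cell sum to this B cell sum was 0.25 ± 0.60 in WT CD, 0.59 ± 0.73 in WT ERTU, -0.42 ± 0.34 in Gαq CD and -0.13 ± 0.62 in Gαq ERTU. Its groups overlapped. With Ighm and Igkc in the B cell sum the ratio fell to between -3.52 and -3.11, since Ighm alone made up 63.4% to 93.0% of the reads of the 5 B cell genes. The immunoglobulin genes hence set any total of B cell genes, and the ratio without them differed in its order of groups.

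Immunoglobulin reads were read apart by gene class. Ighm exceeded Igkc in every library, by 2.44-fold in Gαq ERTU library 20 and by 8.32-fold to 239-fold in the other libraries, where WT CD library 5 had the highest ratio with 1 Igkc count. In Gαq ERTU library 20 Igkc had 142 counts (6.53 CPM), while the other 17 libraries had 1 to 32 counts. The same library had 160 counts over 45 of the 218 annotated immunoglobulin V segments, the variable parts of antibody chains, against 5 to 49 counts over 4 to 26 segments in the others. It also had the highest level of 7 of the 15 plasma cell genes. Among them were Jchain, the joining chain of secreted IgM and IgA (52 counts, at most 14 elsewhere), and Ighg2c (16, at most 2). Igha (2.39 CPM, at most 2.16 elsewhere) and Sdc1 (14.25 CPM, at most 14.23) lay only slightly above the next library. Mzb1, Tnfrsf17, Prdm1, Irf4 and Derl3 were among the genes highest in other libraries. The share of all genes highest in library 20 was not counted. No V segment held more than 11.3% of its V segment reads. Its summed fat genes (83.4 CPM, 1.6 to 35.3 elsewhere) and Myl7 (92.5 CPM) were high as well. The part of either in these values was not tested. WT CD library 5, with 1 Igkc count and 9 V segment counts, had the highest Ighm level of its group. Over the 18 libraries Pearson's r of Ighm was 0.37 with Igkc, 0.52 with Cd79a, 0.68 with Ms4a1 and 0.74 with Cd79b. The share of Ighm reads that comes from B or plasma cells was not tested.

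**Figure D4:**
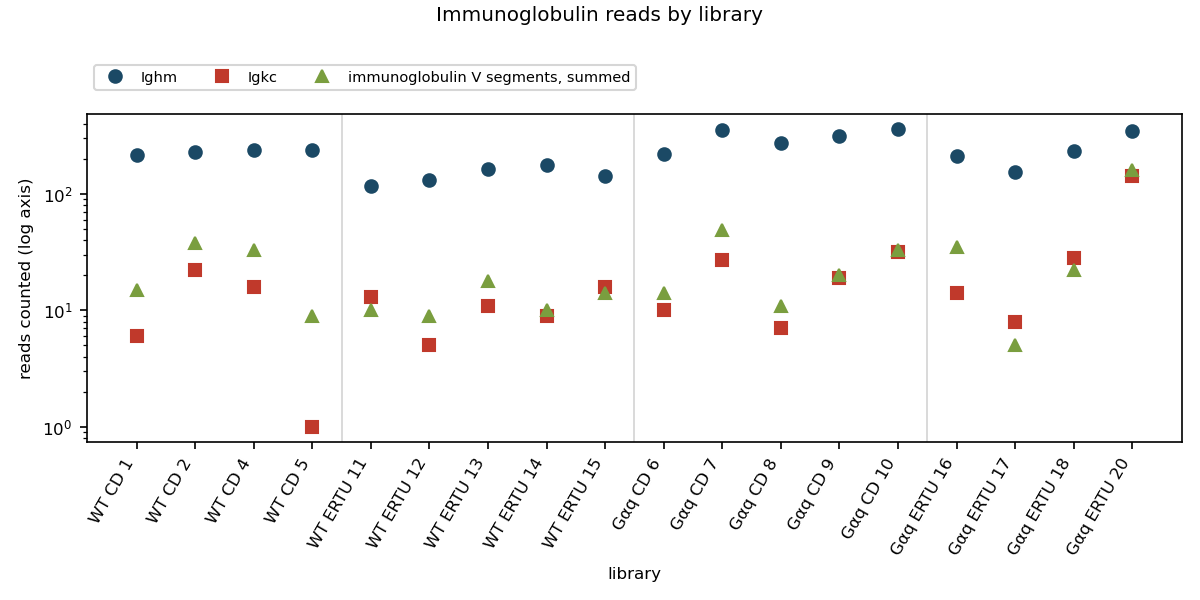
Reads counted for Ighm, for Igkc and for the 218 immunoglobulin V segments together in each of the 18 libraries (log axis, grey lines between groups). Ighm lay between 117 and 362 counts throughout, whereas Igkc and V segments reached 142 and 160 counts in Gαq ERTU library 20.

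T cell receptor reads were sparser. The 8 annotated constant genes had 15 to 75 counts per library and the 144 V segments 4 to 26 counts. The constant genes averaged 1.67 ± 0.258 CPM in WT CD, 1.33 ± 0.340 in WT ERTU, 2.46 ± 1.01 in Gαq CD and 2.06 ± 0.609 in Gαq ERTU. Gαq CD libraries 7 and 10 had the most, with 75 and 73 counts, and the groups overlapped. Immunoglobulin V segments averaged 1.38 ± 0.780, 0.703 ± 0.226, 1.29 ± 0.715 and 2.75 ± 3.16 CPM in the same order of groups. Without library 20 the Gαq ERTU mean was 1.22 ± 0.928 CPM (n = 3), below those of both CD groups.

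The genes varied together only in part. Over the 18 libraries, pairs of B cell genes had a median Pearson's r of 0.49 (0.14 to 0.74), pairs of T cell genes 0.30 (-0.04 to 0.57) and mixed pairs 0.32 (0.05 to 0.61), as a description on sparse counts that share library and depth. After group means were removed the medians were 0.39, 0.24 and 0.15. The B cell pair with the highest r was Cd79b with Ighm (0.74), and the T cell pair Cd3g with Cd2 (0.57). Of the genes outside the 9, those whose log2 CPM was most like the mean of Cd3g and Cd2 were Rpl15 (r = 0.81), Star (0.80), Utp18 (0.79), Zfp27 (0.79) and Spic (0.78). Those most like the mean of the 4 tested B cell genes were Mapk12 (r = 0.87), Gm8539 (0.84), Arpc2 (0.84), Pycard (0.81) and Tpd52 (0.81). Both sets are the highest values among all genes tested, over 18 libraries and with group means left in. High values can arise from such a pick alone, and a link of these genes to lymphocytes was not tested.

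Further T cell genes were looked up in lists. Of the T cell receptor complex and co-receptor genes, 7 of 12 were tested, and by genotype 1 rose and 1 fell (median log2 change 0.43, against 0.00 over all genes), where 9.72% of all genes were higher and 9.92% lower, so that these counts lie near the background. Cd4, a co-receptor of helper T cells that macrophages can also carry, rose by 0.74 ± 0.16 (edgeR, adjusted p = 0.0018). Cd247, the zeta chain of the receptor, fell by 0.81 ± 0.22 (edgeR, adjusted p = 0.013), against the direction of Cd4. Trbc2, a receptor beta constant gene, differed by 0.81 ± 0.34 (adjusted p = 0.0981). Of the T cell signalling and transcription genes, 10 of 14 were tested and 3 rose by genotype: Lef1, a transcription factor (log2 change 1.59 ± 0.41), Lck, the kinase that phosphorylates CD3 (0.87 ± 0.26), and Fyb, an adaptor also used in myeloid cells (0.30 ± 0.08). On CD, 1 of these 10 rose (Lcp2, an adaptor shared with myeloid cells; edgeR, adjusted p = 5.78e-04), where 4% of all genes were higher, and on ERTU none passed. Of the T cell subset regulators, 4 of 10 were tested, and Ctla4, an inhibitory receptor, fell by 1.81 ± 0.25 on the log2 scale (edgeR, adjusted p = 2.54e-05), by 1.58 on CD, where 4.1% of all genes were lower, and by 2.05 on ERTU, where 4.24% were, while Il2ra (-0.34 ± 0.19) and Gata3 (-0.69 ± 0.41) did not pass. The median log2 change was 0.50 in the signalling list and -0.52 in the subset list, and Foxp3, which defines regulatory T cells, had at most 2 counts in a library. In WT CD the subset list summed to a mean of 81.1 CPM and the receptor and co-receptor list to 24.0 CPM. The 4 T cell genes Cd3d, Cd3e, Cd3g and Cd2 summed to 1.44 CPM there. Which cells the reads of these lists, Ctla4 and Cd247 among them, come from was not tested.

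Further B cell genes mostly did not pass. Of the B cell surface, signalling and transcription genes, 10 of 19 were tested and 1 rose by genotype, where 9.72% of all genes were higher. The median log2 change was 0.56 and 10 of 10 were positive, against 8238 of 16270 over all genes. On CD 10 of 10 were positive and on ERTU 8 of 10. By diet, over both genotypes, 0 of 10 were positive, against 8050 of 16270 over all genes. The filter favours a positive sign for sparse genes that are high in Gαq libraries, so the signs are given as a description. Ighd, the heavy chain of surface IgD, rose by 0.93 ± 0.26 (edgeR, adjusted p = 0.0144). Cd22 (0.76 ± 0.32, adjusted p = 0.101) and Blk (1.06 ± 0.45, adjusted p = 0.103) did not pass. Summed, this list had 12.6 to 18.9 CPM in WT libraries and 15.5 to 26.5 CPM in Gαq libraries, where Gαq CD library 7 was the highest. That library had the highest level of 6 of the 19 genes, among them Pax5, the B cell identity factor (31 counts), Fcer2a (33) and Ighd (66). It was also the highest for Ms4a1 (32 counts). The share of all genes highest in that library was not counted. Of the plasma cell and secreted immunoglobulin genes, 5 of 15 were tested, 4 were positive by genotype and 1 rose, Irf4 (0.70 ± 0.21; edgeR, adjusted p = 0.0247), a factor of plasma cells and of activated lymphocytes, while Sdc1 (0.29 ± 0.16) and Mzb1 (0.52 ± 0.37) did not pass. In neither list did a gene pass within 1 diet, or for ERTU in either genotype.

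Genes of natural killer cells and of homing completed the lymphocyte lists. None of the 3 tested of 11 natural killer and cytotoxic genes passed by genotype (edgeR). These were Klrk1 (0.93 ± 0.35, adjusted p = 0.0675), Ccl5 (0.63 ± 0.28) and Ncr1 (0.89 ± 0.44). The sum over all 11, most of them under the filter, was 2.03 to 2.88 CPM in WT and 2.99 to 7.08 CPM in Gαq libraries. It is a description without a test, and the share of all genes that separate so by genotype was not counted. Of the homing and lymphoid tissue genes, 7 of 14 were tested, of which 1 rose and 1 fell, near the shares of 9.72% and 9.92% over all genes. Cxcr3, a chemokine receptor of activated T cells, rose by 1.06 ± 0.30 (edgeR, adjusted p = 0.0137) and S1pr1, which endothelium carries in abundance, fell by 0.39 ± 0.14 (adjusted p = 0.0451), while Ltb (0.80 ± 0.29) had an adjusted p of 0.0523. Ccl19, Ccl21a and Glycam1, made in lymph nodes, were at 0 counts in all 18 libraries. Cxcl13, which attracts B cells, had 95 counts in Gαq ERTU library 20 and at most 30 elsewhere. Of 10 genes of immature lymphocytes and thymus, 1 was tested and it did not pass.

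Genes shared by leukocytes differed by genotype as well. Of 11 pan-leukocyte genes, 5 rose by genotype: Ikzf1 (0.61 ± 0.13), Cd52 (0.78 ± 0.23), Ptprc, which encodes CD45 (0.32 ± 0.10), Vav1 and Arhgdib. By genotype 11 of 11 were positive, against 8238 of 16270 over all genes. Their summed level was 97.1 ± 10.01 CPM in WT CD, 88.0 ± 9.09 in WT ERTU, 129.9 ± 18.02 in Gαq CD and 101 ± 4.88 in Gαq ERTU. On CD, 2 of these genes rose, where 4% of all genes were higher. There 11 of 11 were positive (8327 of 16270 over all genes), with a median log2 change of 0.43. On ERTU none passed, where 3.93% of all genes were higher. Positive signs were again seen in 11 of 11 (8115 of 16270 over all genes). The median log2 change was 0.20, and 2 genes had an unadjusted p under 0.05 (edgeR). The signs were as one-sided by diet: over both genotypes 0 of 11 were positive, against 8050 of 16270 over all genes. There 6 were lower at an unadjusted p under 0.05 (edgeR) and none passed. Of the MHC class II genes 0 of 5 were positive by diet, and 4 were lower at that unadjusted p. Of the macrophage and monocyte genes, 1 of 11 tested rose by genotype (Fcgr1, 0.71 ± 0.18), and of the neutrophil genes (3 tested), MHC class II genes (5 tested), red blood cell and platelet genes (7 tested) and fat genes (4 tested) none passed. Of the fibroblast genes 6 of 8 rose, of the endothelial genes 2 of 6 fell, of the atrial genes 1 of 4 rose (Nppa), and of the ventricular cardiomyocyte genes 1 of 10 rose and 4 fell, against 9.72% higher and 9.92% lower over all genes. The part of these cell types in the lymphocyte values was not tested.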

How the data were processed

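RNA was sequenced from the LV of 18 mice in 4 groups. The authors deposited raw read counts per Ensembl gene, made by aligning 100-base read pairs of poly(A)-selected libraries to mm10 with STAR 2.6.0c and counting uniquely aligned proper pairs with featureCounts of Subread 1.6.2. A second deposited table holds log2-like values from the variance-stabilizing transformation of DESeq2. Unique alignment to a reference of another strain can lose reads of V segments and of constant genes. Symbols and positions came from GENCODE M21 (GRCm38), which matched 55190 of 55450 IDs (99.5%).

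For the present tests edgeR 4.0.16 (R 4.3.3) was run on these counts: filterByExpr on the 4 groups left 16270 genes (0.0906% of counts left out), scaling was by TMM, and quasi-likelihood F tests gave genotype and diet from a model with both, and 4 pairwise comparisons and the interaction from group means. Benjamini-Hochberg adjustment ran over all genes tested (threshold 0.05). SE is the change divided by the square root of F. CPM used library totals with TMM factors, and log2 CPM a prior count of 2. Members under the filter were compared by 2-sided exact permutation of mean CPM, 4 against 5 libraries. P-values measure the spread between mice. The scripts were tested on simulated data.

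The 9 genes and the 18 further lists were chosen with earlier results of these data known. Genes named are the 9 members, up to 3 per list with the smallest p by genotype and the 5 most correlated genes per profile. Other genes (for example Jchain, Lcp2, Pax5, Gnaq, Myl7) were named after their values were seen. Alternatives were other size factors, filters, DESeq2 1.42.0, limma 3.58.1 (voom with sample weights), fits of the 2 groups alone, leaving out each library and, chosen after seeing the data, leaving out the 4 libraries with Myl7 above 50 CPM.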

Additional observations from a re-analysis of the deposited data

Results flagged for a closer look

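Each of 15 measures (the 9 genes, the 2 sums and the 4 segment classes) was examined in each of the 4 groups for a library far from the others, 60 examinations in all, of which chance alone flags about 1 in 20. Ms4a1 stood apart in Gαq CD library 7 (1.55 CPM, the others 0.238 to 0.492) and in Gαq ERTU library 20 (0.827 CPM, the others 0.226 to 0.277). Without Gαq CD library 7 the difference of Gαq CD from WT CD was -0.0436 CPM in place of 0.192. The summed T cell receptor V segments stood apart in WT CD library 4 (0.637 CPM, the others 0.228 to 0.288) and in WT ERTU library 11 (0.72 CPM, the others 0.384 to 0.451). The high Igkc level of Gαq ERTU library 20 did not reach the critical value.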

How the results depend on the processing

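No paired analysis was possible because the numbers of the table's columns run across the whole series and are not the replicate numbers of the labels. Of the settings that tested it, each called Cd79b by genotype and on ERTU, and each called Ighm by genotype. With a mean CPM of at least 1, only Ighm and Igkc were tested and members called were 1 by genotype, 1 between the genotypes on ERTU and 0 between them on CD. With only the 2 groups compared, 1 member was called on ERTU, and Ighm had an adjusted p of 0.0564. Without the 4 libraries with Myl7 above 50 CPM, 1 member was called between genotypes on ERTU and 0 on CD. Igkc by genotype passed with voom (adjusted p = 0.0456). For ERTU in Gαq the gene count was 0 with no filter, 0 with only the 2 groups and 0 without the Myl7 libraries, against 1, and 4 with DESeq2. DESeq2 called 2 genes for diet, and voom 2755 genes for Gαq on ERTU, against 1330. Leaving out 1 library gave 2812 to 3458 genes and 2 to 4 members by genotype, 788 to 1414 genes and 0 to 2 members between genotypes on CD, 946 to 1696 genes and 1 to 3 members on ERTU, and 0 genes for ERTU in Gαq in all 18 fits. The lowest count of genes on CD came without WT CD library 1. On the deposited variance-stabilized scale, Cd79b differed by genotype by 0.59 and Ighm by 0.32, in the same direction. The log2 ratio of T to B cell genes moved from -3.52, -3.11, -3.32 and -3.29 (WT on CD, WT on ERTU, then Gαq likewise) to -0.17, 0.28, -0.71 and -0.56 without Cd2, Ighm and Igkc. Low counts limit all members but Ighm. Igkc had 1 to 32 counts per library, apart from 142 in 1 Gαq ERTU library, and the remaining members had 1 to 33.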
